A study of Sus scrofa with 180 samples.

Results

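Transcripts of 3 genes of fast skeletal muscle fibres were followed in Longissimus muscle (LM) and Semimembranosus muscle (SM) of the same pigs: MYH1, MYL1 and PVALB, which encodes parvalbumin. All probes that the gene lists of the study pair with 1 of these symbols were taken, which gave 3 probes, 1 for each gene, of 15198 on the array. The lists at hand name 3967 probes of 3481 genes. They hold probes that the study had called different between LM and SM in these same samples, so the direction of each member between the muscles was known when it was chosen and is not independent evidence.

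The 90 pigs, females and barrows, belonged to an F2 population from 2 commercial sire lines, F016 of Pietrain type and FH019, a synthetic line with Hampshire, Duroc and Large-White founders. Both groups are untreated muscle of these pigs, which formed 2 half-sib families and were all homozygous wild type at the HAL and RN loci. LM, the muscle along the back, and SM, a muscle of the ham, were sampled with a trocar from their superficial regions shortly after slaughter, so deeper fibres were not sampled. Each muscle of each pig was hybridised to 1 single-colour Agilent array, which gave 90 arrays of LM and 90 of SM.

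A muscle fibre contracts when myosin motors pull on actin filaments, and each fibre type has its own myosin isoforms. MYH1 encodes the myosin heavy chain of type IIx fibres, which are fast and largely glycolytic, and MYL1 encodes the essential (alkali) light chain that fast fibres place on the neck of the heavy chain. Parvalbumin is a soluble calcium-binding protein of fast fibres that takes up calcium in the cytosol and speeds relaxation. LM and SM are both mainly fast muscles.

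The probes are 60 bases long and were each found once on the array. The first 30 bases of each are shown 5′ to 3′ to identify the probes, with the first 15 in capitals. The count of C in that stretch is used further on in an index of base composition.
MYH1: CTCAAAAGTGACCAAagaaatgcacacaat
MYL1: AGACTCTTACTCAAGaactcaagagcctgt
PVALB: GTTCAGTTTGTTTGTgttattttttactcc
The first 15 bases held 4 C in the MYH1 and MYL1 probes and 1 C in that of PVALB, against a median of 3 over all probes. GC content was 35% for MYH1, 40% for MYL1 and 45% for PVALB, with a median of 45% over the array. In the RefSeq annotation of assembly Sscrofa11.1, MYH1 lies between MYH4 and MYH2, the genes of other fast myosin heavy chains, and signal from them on the MYH1 probe was not tested against a genome. The longest run of bases that the MYH1 probe shared with any other probe, on either strand, was 21, with a probe that has no gene name here. With the probes of MYH3 and MYH8, the embryonic and perinatal heavy chains, it shared runs of at most 7 and 6 bases.

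Signals are given on the log2 scale relative to the median of the array, so a level of 8 means a spot 8 doublings brighter than the median probe. Levels of different probes cannot be compared with each other. The spots of all 3 genes were well above background on all 180 arrays. So were those of ACTA1, CKM, TTN, NEB and MB, defining genes of skeletal muscle. In these whole pieces of muscle, a smaller share of a fibre type and less transcript per fibre cannot be told apart. No slide and no scan day held both muscles (21 slides and 10 scan days for LM, 14 and 5 for SM), so a difference of slide or day cannot be told apart from a difference of muscle. Sex, slaughter season and carcass weight were not in the labels.

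MYH1 and PVALB were overrepresented in SM and MYL1 was overrepresented in LM. The geometric mean was 1.48-fold higher in SM for MYH1, 2.33-fold higher in SM for PVALB and 1.83-fold higher in LM for MYL1. Of the 10987 probes tested, 9169 (83.5%) differed between the muscles at an adjusted p of 0.05 or less, 35.7% in the direction of LM and 47.7% in the direction of SM. The median difference over all probes tested was -0.07 (log2, LM minus SM). Being called was thus the common outcome on this array.

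The level of MYH1 ran from 7.89 to 8.86 in LM with a median of 8.31 (84 arrays) and from 8.32 to 9.39 in SM with a median of 8.87 (90 arrays). All 84 LM values lay below the SM median and all 90 SM values above the LM median, although 37 LM values fell within the range of SM. The difference, LM minus SM, was -0.57 ± 0.030 (SE), with a 95% interval from -0.63 to -0.51 and an adjusted p of 5.916e-44 (limma). All 84 pigs with a value in both muscles had the higher level in SM. The pig differences ranged from -1.23 to -0.0012.

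The MYH1 signal was taken from the low-power scan and scaled up on all 180 arrays. On LM arrays, 3 of its spots were saturated and 5 were not uniform, so that 6 arrays gave no value. MYH1 moved with an index of base composition, computed for each array from signals centred on each probe. The index is the mean of probes with 8 or more C among their first 15 bases minus that of probes with 2 or fewer. On the 90 LM arrays this index averaged -0.37 ± 0.34 (SD), and on the 90 SM arrays it averaged 0.38 ± 0.31 (SD). Within muscles, MYH1 rose with it at r = 0.448 in LM (rho = 0.392, adjusted p = 0.0003, permutation test, 84 arrays) and r = 0.530 in SM (rho = 0.497, adjusted p = 0.00012, 90 arrays). Leaving out the 2 arrays farthest from the median of the index gave r = 0.415 and 0.517. With the index as a covariate the MYH1 difference was -0.34, and -0.36 with pig as a block as well, both still called. The index itself differed between the muscles, so its part and that of muscle cannot be told apart. The part of base composition in the difference was not tested beyond this covariate.

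The level of MYL1 ran from 3.86 to 6.08 in LM with a median of 5.35 (90 arrays) and from 3.41 to 5.25 in SM with a median of 4.52 (90 arrays). The ranges overlapped broadly, as 84 SM values lay within the range of LM, yet 87 of 90 LM values exceeded the SM median. MYL1 was higher in LM by 0.87 ± 0.053 (SE), with a 95% interval from 0.77 to 0.98 and an adjusted p of 4.331e-37 (limma). LM was the higher muscle in 87 of 90 pigs, and the pig differences ranged from -0.61 to 2.17. The 3 pigs with the reverse order had the 3 lowest MYL1 levels of LM, 3.86, 4.07 and 4.44, while their SM levels of 4.47, 4.56 and 4.55 were near the SM median. On 40 LM arrays and on no SM array, the MYL1 signal was bright enough to be taken from the scaled low-power scan. Those spots read 21096 to 35320 units, and the 50 others in LM read 9540 to 22275.

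PVALB varied most between pigs. Its level ran from -0.12 to 4.25 in LM with a median of 1.93 (88 arrays) and from -0.58 to 4.91 in SM with a median of 3.23 (90 arrays). The highest LM array was thus 20.7-fold above the lowest, and the corresponding range in SM was 45.0-fold. All 88 LM values lay within the wide range of SM. Yet 82 of 88 LM values were below the SM median, and 84 of 90 SM values were above the LM median. PVALB was lower in LM by a log2 difference of -1.22 ± 0.13 (SE), with a 95% interval from -1.48 to -0.96 and an adjusted p of 2.832e-16 (limma). SM was the higher muscle in 76 of 88 pigs and LM in 12. The pig differences ranged from -4.51 to 3.73, with a median of -1.26. A further LM value of PVALB, -1.45, lay more than 3 SD from the mean of the probe and was removed.

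**Figure D1:**
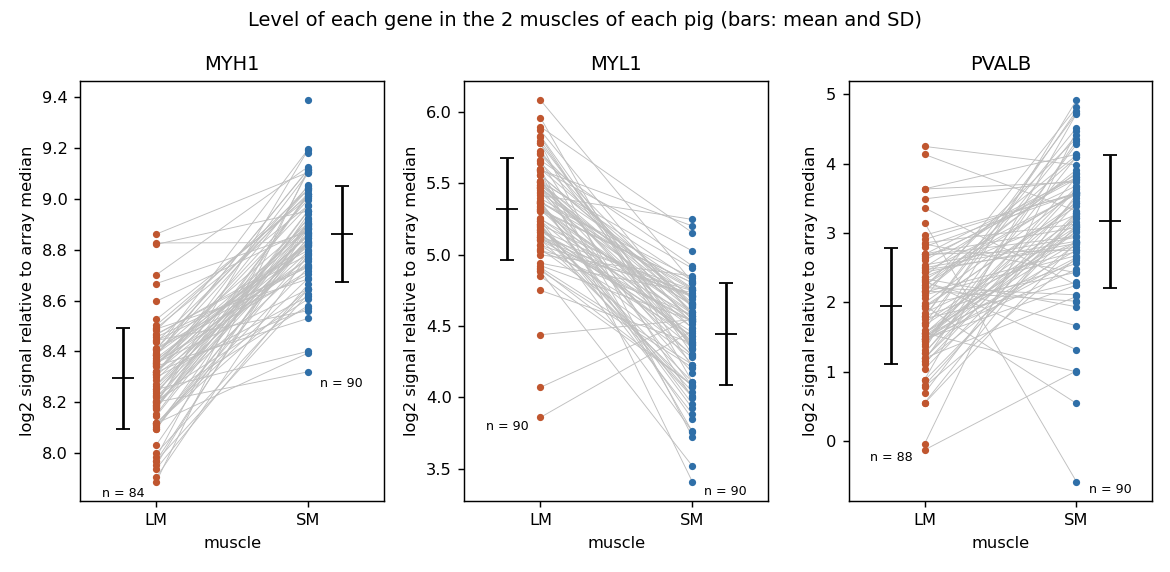
Level of MYH1, MYL1 and PVALB (log2 signal relative to the array median, vertical axis) in LM and SM. Points are arrays, grey lines join both muscles of a pig, and black bars give the mean and SD. MYH1 and PVALB lie higher in SM and MYL1 lies higher in LM, with medians of 8.31 against 8.87 for MYH1, 5.35 against 4.52 for MYL1 and 1.93 against 3.23 for PVALB.

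The 3 genes changed unequally between the muscles. The differences compared next are within arrays, so the centring of the array drops out. The change of MYH1 was lower than that of MYL1 by a mean of -1.41 ± 0.057 (SE, 84 pigs), in 84 of 84 pigs. The change of MYH1 exceeded that of PVALB by 0.61 ± 0.14 (SE, 83 pigs), in 61 of 83 pigs. The change of MYL1 exceeded that of PVALB by 2.12 ± 0.13 (SE, 88 pigs), in 84 of 88 pigs. Each of the 3 comparisons gave p = 1e-05 by sign-flip permutation over pigs and an adjusted p of 1e-05, the smallest value the permutations can give. In 69 of the 83 pigs with all values, MYL1 was higher in LM while MYH1 and PVALB were higher in SM. In no pig were all 3 genes higher in LM, and in 2 pigs all 3 were higher in SM.

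**Figure D2:**
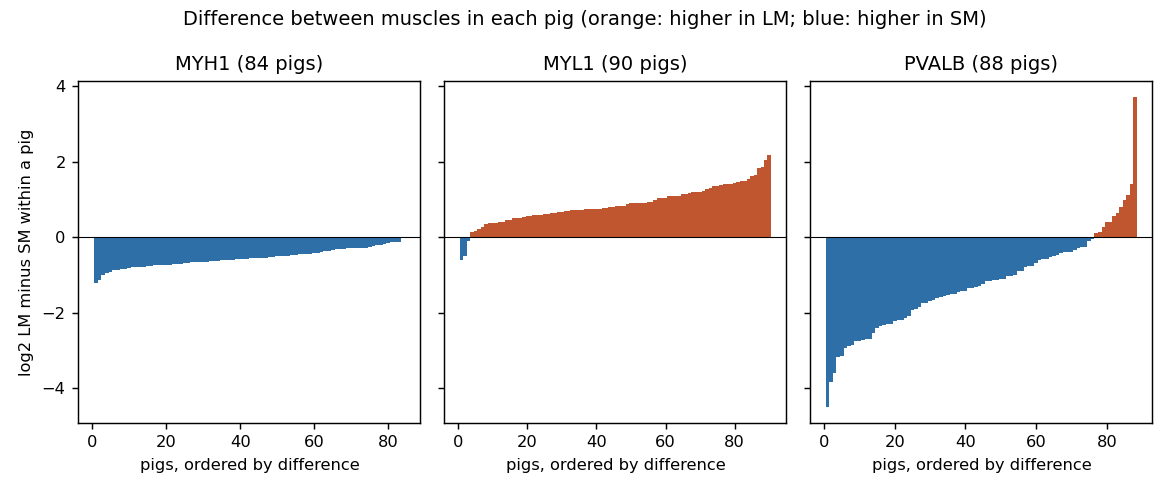
Difference in log2 level between LM and SM within each pig (vertical axis) for the 3 genes, with pigs ordered by the difference (horizontal axis). Orange bars are pigs with the higher level in LM and blue bars those with the higher level in SM. MYH1 is blue in all 84 pigs, MYL1 orange in 87 of 90 and PVALB blue in 76 of 88.

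The spread between pigs was similar in both muscles for each gene. For MYH1 the SD was 0.198 in LM and 0.180 in SM over the 84 pigs with both values. MYL1 had SDs of 0.359 and 0.356 over 90 pigs. PVALB had SDs of 0.832 and 0.959 over 88 pigs. The log2 ratio of the SDs, LM over SM, was 0.14 for MYH1 (adjusted p = 0.694), 0.014 for MYL1 (adjusted p = 0.952) and -0.21 for PVALB (adjusted p = 0.694), by permutation of the muscles within pigs. None of these differences was larger than the permutations gave, which does not show that the spreads were equal.

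Slides were also compared within each muscle. Tested over slides with 3 or more arrays, 52.5% of all probes differed between slides in LM and 14.9% in SM (F test of limma, adjusted p of 0.05 or less). Of the 3 genes, MYH1 in SM passed this test (adjusted p = 0.0104), with slide means from 8.63 to 9.01. In LM, MYH1 had slide means from 8.04 to 8.60 (adjusted p = 0.369), with 42.2% of its variance between slides against a median of 36.1% over all probes. This share was larger than those of MYL1 (31.7%) and PVALB (32.1%) in LM, which had lower adjusted p values. The share and the F test thus ranked the genes differently, for a reason that was not tested. The adjusted p of MYH1 in LM therefore does not show an absence of slide differences. MYL1 had adjusted p = 0.0605 in LM and 0.777 in SM. PVALB had adjusted p = 0.127 in LM and 0.310 in SM, where its slide means nevertheless ran from 2.37 to 3.73.

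Whether pigs high for a gene in LM were also high in SM was asked next. For MYH1 the Pearson r between muscles was 0.189 (rho = 0.153, 84 pigs, adjusted p = 0.259). For MYL1 it was 0.0757 (rho = 0.112, 90 pigs, adjusted p = 0.718). For PVALB it was -0.0175 (rho = 0.00771, 88 pigs, adjusted p = 0.872). These are permutation tests over 3 genes. No relation between the muscles of a pig passed the threshold for any of the genes. Without the 2 pigs farthest from the LM median, r was 0.160 for MYH1, 0.112 for MYL1 and -0.0539 for PVALB. Within slides, r was 0.216, -0.0220 and -0.0125.

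**Figure D3:**
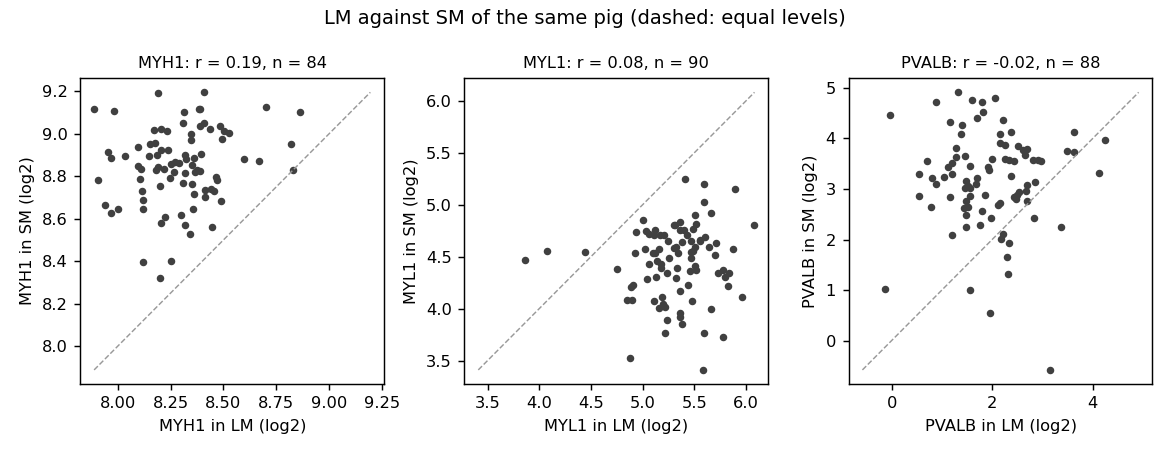
Level in SM (vertical axis) against level in LM (horizontal axis) of the same pig for each gene, as log2 signal relative to the array median. Each point is a pig and the dashed line marks equal levels. The MYH1 points lie above the line and most MYL1 points below it, with r of 0.189 for MYH1, 0.0757 for MYL1 and -0.0175 for PVALB.

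Pairs of the 3 genes were weakly related across pigs within a muscle. In all, 6 relations were computed, and p values are from permutation tests adjusted over the 6. In LM, MYL1 and PVALB had r = 0.286 (88 pigs, p = 0.00671, adjusted p = 0.0403), while the rank correlation was rho = 0.267 (adjusted p = 0.0719). Pigs with more MYL1 in LM thus tended to have more PVALB there. This relation had r = 0.291 without the 2 arrays farthest from the MYL1 median, 0.410 with the removed PVALB value kept, and 0.210 within slides, where the adjusted p was 0.1505. Within the 42 LM arrays read by Feature Extraction 9.5.1.1 r was 0.160, and within the 46 read by 9.5.3.1 it was 0.372.

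MYH1 and MYL1, partners in the same motor complex, had r = 0.224 in LM (rho = 0.134, 84 pigs, adjusted p = 0.125) and r = -0.181 in SM (rho = -0.189, 90 pigs, adjusted p = 0.177). Within slides the LM value was 0.298 with an adjusted p of 0.0420, and the SM value was -0.0899. Without the 2 arrays farthest from the MYH1 median they were 0.246 and -0.171. MYH1 and PVALB had r = 0.138 in LM (rho = 0.121, 83 pigs, adjusted p = 0.256) and 0.0792 in SM (rho = 0.122, 90 pigs, adjusted p = 0.456). Within slides these were -0.0205 and 0.122, and without the 2 farthest arrays 0.0961 and 0.0553. MYL1 and PVALB had r = 0.135 in SM (rho = 0.134, 90 pigs, adjusted p = 0.256), 0.142 within slides and 0.179 without the 2 farthest arrays.

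The relation of a pair was also compared between the muscles by permuting the muscles within pigs. The difference in Fisher z, LM minus SM, was 0.315 for MYH1 and MYL1 (adjusted p = 0.252), 0.100 for MYH1 and PVALB (adjusted p = 0.476) and 0.152 for MYL1 and PVALB (adjusted p = 0.411). These rest on pigs with values in both muscles, over which r in SM was -0.0863 (84 pigs), 0.0386 (83 pigs) and 0.141 (88 pigs). A relation in 1 muscle was therefore not shown to differ from that in the other.

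**Figure D4:**
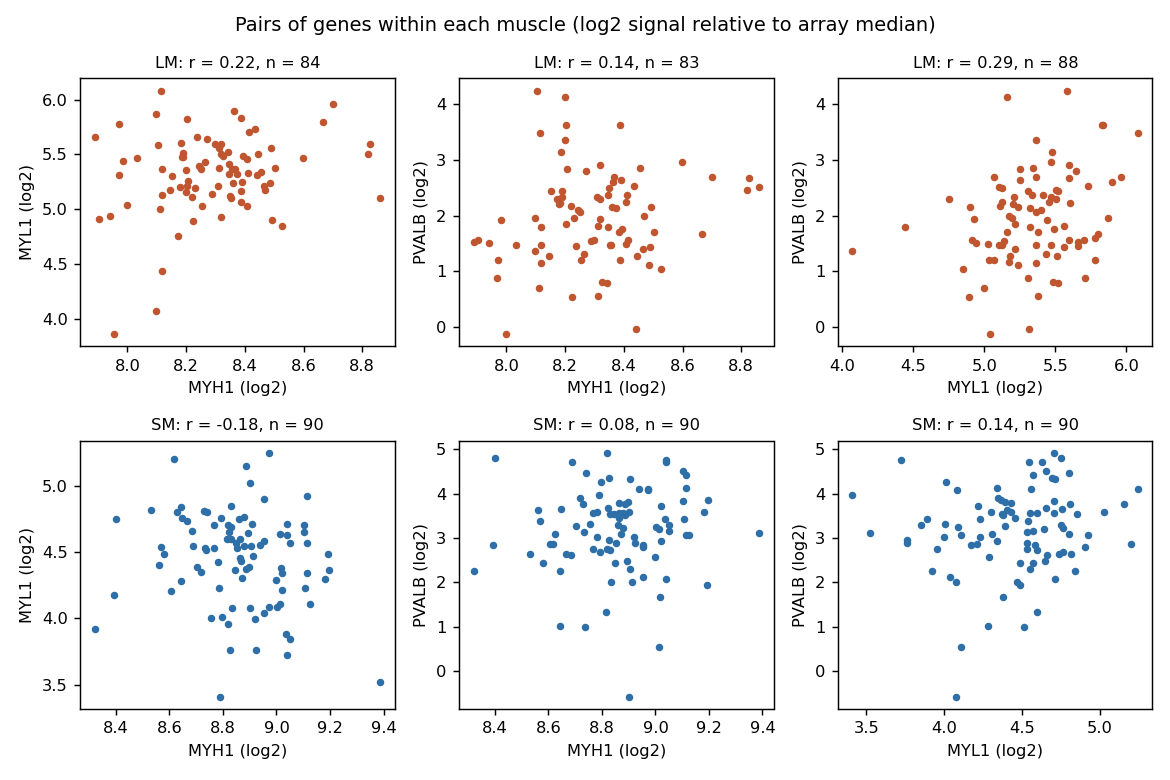
Levels of each pair of genes within LM (upper row, orange) and SM (lower row, blue), as log2 signal relative to the array median on both axes. Each point is an array, and r is Pearson's. The clouds are wide in every panel, and r runs from -0.181 to 0.286.

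The levels of the 3 genes were next set beside genes of fast and slow fibres, of the sarcomere, of glycogen use and of other cell types, 105 probes in all. These genes were named through the same lists of called probes, so most differ between the muscles by choice, and over all probes 35.7% were called higher in LM and 47.7% higher in SM. The fast fibre and calcium release list had 5 of 18 genes named here, and 3 of its 5 probes were higher in LM and 2 higher in SM. RYR1, the calcium release channel of the sarcoplasmic reticulum, had the largest difference of this list (3.54, adjusted p = 3.221e-100), and CALM3, a calmodulin, the smallest (0.37, adjusted p = 1.236e-08). The median of the list was 0.37, so PVALB and MYH1 lay on the other side of 0 and MYL1 on the same side. Of 13 slow fibre probes, 5 were higher in LM, 7 higher in SM and 1 was not called, with a median of -0.29. ANKRD2, a stretch-responsive protein, differed most (-1.40), and CSRP3, a Z-disc protein, least (0.14, adjusted p = 0.201). All 4 probes of developmental contractile genes were higher in SM, the direction of MYH1 and PVALB, with MYH3 at -1.39 and TNNI3, the cardiac troponin I, at -0.66. Of 21 probes of sarcomere genes shared by fibre types, 16 were higher in LM, as MYL1 was, and 5 higher in SM, with TTN, the giant spring protein, farthest at 1.38 and LDB3 nearest at 0.31. Of 19 probes of glycogen and glycolysis genes, 13 were higher in LM and 6 in SM, with a range of size from PHKB, a subunit of phosphorylase kinase (2.37), to PYGM, muscle glycogen phosphorylase (0.23). Of 16 probes of fibre type regulators, 7 were higher in LM, 8 higher in SM and 1 was not called, with ESRRG, an oestrogen-related receptor, farthest (-1.69) and SOX6 nearest (0.063, adjusted p = 0.349). With the base composition index as a covariate, the calls higher in LM and in SM became 14 and 4 for glycogen and glycolysis. They became 15 and 4 for the sarcomere, 3 and 7 for the regulators and 5 and 6 for slow fibres. Those of the fast fibre and developmental lists stayed at 3 and 2 and at 0 and 4. Over all 10987 probes, 3673 were then called higher in LM and 4469 higher in SM. SLC16A3, a lactate transporter, turned from -0.42 to 0.11 (adjusted p = 0.0335), and GAPDH, of glycolysis, went from -0.41 to -0.055 (adjusted p = 0.483). Among the probes named above, PYGM rose from 0.23 to 0.56, CALM3 from 0.37 to 0.71 and LDB3 from 0.31 to 0.59.

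Markers of other cell types were mostly higher in SM, the direction of MYH1 and PVALB and not of MYL1. All 9 smooth muscle, 3 adipocyte, 4 fibroblast, 5 endothelium and 3 red cell probes were higher in SM. So were 2 of 3 macrophage probes. Over all probes, 47.7% were called higher in SM. These markers, too, were named through the lists of called probes, and the 3 red cell probes are all of HBA2. The largest differences were in MYH11 (-1.76), ADIPOQ (-1.26), FBLN1 (-1.18), CD34 (-0.72), HBA2 (-1.28) and C1QC (-1.43). The smallest were in SMTN (-0.39), PLIN1 (-1.13), LUM (-0.46), VWF (-0.50), HBA2 (-0.46) and CD68, a macrophage marker that was higher in LM (0.40). With the base composition index as a covariate, FBLN1 turned to 0.60 and was called higher in LM (adjusted p = 1.468e-13). Of the 3 HBA2 probes, 1 was then still called, and those at -1.28 and -0.46 became -0.14 (adjusted p = 0.179) and -0.25 (adjusted p = 0.139). The smooth muscle, adipocyte, endothelium and macrophage counts were unchanged by this covariate, with which 4469 of all 10987 probes were called higher in SM. The summed signal of the adipocyte probes, in multiples of the array median, had a median of 1.496 in LM (0.328 to 13.0) and of 3.098 in SM (0.876 to 14.7). That of the fibroblast probes had a median of 22.2 in LM (10.8 to 145) and of 48.6 in SM (28.7 to 132). Macrophage probes summed to a median of 0.901 in LM (0.511 to 2.39) and 2.06 in SM (0.984 to 5.14). Smooth muscle probes summed to 738 in LM (541 to 1119) and 1016 in SM (716 to 1530), mostly from 2 ACTA2 probes, and without these to 20.8 in LM (9.75 to 42.6) and 33.8 in SM (17.8 to 54.3). The ACTA2 differences of -0.48 and -0.47 became -0.18 and -0.19 with the base composition index, both still called. Endothelium summed to 4.72 in LM (3.15 to 5.93) and 6.79 in SM (5.13 to 9.03), and red cell probes to 17.6 (8.91 to 44.9) and 39.2 (17.1 to 109.8). Each sum used only arrays with a value for every probe of the list, from 77 to 89 arrays of a muscle. Arrays with a missing value, dim spots among them, were left out, so a sum of 0 could not arise. The part of other cell types in the differences of the 3 genes was not tested.

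Within a muscle, correlations of the 3 genes with the 105 listed probes gave 630 relations, of which 134 had an adjusted p of 0.05 or less by permutation and 115 did so for Spearman's rho. The probes of an array share its centring, and the part of this in the correlations was not tested. MYH1 had r of 0.3 or more in size with 15 of 105 listed probes in LM and 24 in SM, where 18.1% and 25.3% of all probes did. For MYL1 the counts were 23 in LM and 21 in SM, where 11.4% and 19.7% of all probes did. For PVALB they were 4 and 15, where 2.78% and 14.8% did. The listed shares were thus 14.3% and 22.9% for MYH1, 21.9% and 20.0% for MYL1, and 3.81% and 14.3% for PVALB. MYL1 in LM stood farthest above its background, and the others were near theirs.

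Of 21 sarcomere probes, 4 rose with MYH1 in LM, namely 2 of ACTA1 and those of LDB3 and TCAP, and in SM 8 rose and 3 fell. Of all probes, 18.1% in LM and 25.3% in SM had r of 0.3 or more in size with MYH1. This share goes by size of r in either direction, whereas the counts are calls by adjusted p. The highest relations of MYH1 in LM were with ACTA2, smooth muscle alpha-actin (r = 0.797, rho = 0.774, adjusted p = 0.00162, permutation test, 82 arrays), and ACTA1, skeletal alpha-actin (r = 0.792, rho = 0.798, adjusted p = 0.00162, 83 arrays). In SM the same genes led, with r = 0.812 for ACTA2 (rho = 0.817) and r = 0.796 for the other ACTA1 probe (rho = 0.803), both with adjusted p = 0.00162 by permutation over 90 arrays. Within slides these 4 relations had r of 0.813, 0.696, 0.7501 and 0.753, and without the 2 arrays farthest from the MYH1 median 0.768, 0.819, 0.7855 and 0.778. Of the 9 smooth muscle probes, ACTA2 included, 3 rose with MYH1 in LM, and the median r of the 9 was 0.048. Whether the ACTA2 probe also read skeletal actin was not tested. Over all listed probes, the lowest in LM were MEF2A (r = -0.306, rho = -0.296, adjusted p = 0.0356), a transcription factor of muscle, and TBX15 (r = -0.282, rho = -0.286, adjusted p = 0.0567). The lowest in SM were PLN, phospholamban, a brake on the calcium pump of slow fibres (r = -0.355, rho = -0.340, adjusted p = 0.00752), and PDLIM3 (r = -0.301, rho = -0.264, adjusted p = 0.0296). By list, the median r with MYH1 was 0.267 in LM and 0.221 in SM for the 5 fast fibre probes and -0.0945 and -0.0139 for the 13 slow fibre probes, where the median over all probes was -0.00730 and 0.0412. Within slides the slow fibre medians turned to 0.0559 and 0.0468.

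MYL1 was most related to CAPZA2, a subunit of the protein that caps actin filaments at the Z-disc. The 2 CAPZA2 probes had r of 0.738 and 0.701 in LM (rho = 0.727 and 0.645) and of 0.760 and 0.724 in SM (rho = 0.729 and 0.690), each with adjusted p = 0.00162 by permutation. Within slides the values were 0.683 and 0.638 in LM and 0.779 and 0.769 in SM. The lowest relations of MYL1 were with PPARD (r = -0.362, rho = -0.283, adjusted p = 0.00610) and TAGLN (r = -0.286, rho = -0.201, adjusted p = 0.0358) in LM. In SM they were with ESRRA (r = -0.435, rho = -0.428, adjusted p = 0.00162) and LMOD2 (r = -0.418, rho = -0.401, adjusted p = 0.00162). PPARD and ESRRA are nuclear receptors that act on oxidative metabolism. Of 19 glycogen and glycolysis probes, 9 rose with MYL1 in LM and 7 in SM, and 1 fell in SM (adjusted p of 0.05 or less). Their median r was 0.2497 in LM and 0.217 in SM, against -0.00779 and -0.0266 over all probes. Of all probes, 11.4% in LM and 19.7% in SM had r of 0.3 or more in size with MYL1. These shares go by size of r in either direction, and so are not the same measure as the counts. Of the 4 developmental probes, 2 fell with rising MYL1 in SM, those of the heavy chains MYH3 and MYH8. By permutation, MYH3 had r = -0.319 (rho = -0.274, adjusted p = 0.0180, and 0.0512 for rho). MYH8 had r = -0.271 (rho = -0.291, adjusted p = 0.0436). The highest r of that list in SM was -0.0045. In LM no probe of the list passed, with r of -0.037 for MYH3 and -0.186 for MYH8.

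With PVALB, 5 of 105 probes passed in LM, all positive, and in SM 15 were positive and 6 negative. Over all probes, too, the share with r of 0.3 or more in size was lower in LM (2.78%) than in SM (14.8%), and the listed shares of 3.81% and 14.3% were near it. The highest in LM were TPI1, triosephosphate isomerase of glycolysis (r = 0.532, rho = 0.534, adjusted p = 0.00162, 83 arrays, permutation test), and PHKA1, a subunit of phosphorylase kinase (r = 0.406, rho = 0.346, adjusted p = 0.00280). The lowest in LM, ENG (r = -0.261, rho = -0.206, adjusted p = 0.0586) and MYBPC1 (r = -0.233, rho = -0.235, adjusted p = 0.103), did not pass. In SM the highest were of the smooth muscle list, CNN1 (r = 0.542, rho = 0.513) and an ACTA2 probe (r = 0.524, rho = 0.440). Both had adjusted p = 0.00162 by permutation. This ACTA2 probe was not the one that led for MYH1, and whether it also read skeletal actin was not tested. Over the 9 probes of that list, r ran from -0.036 to 0.542 with a median of 0.200. The lowest in SM were of slow fibres, PLN (r = -0.386, rho = -0.337, adjusted p = 0.00450) and MYL2, the slow regulatory light chain (r = -0.318, rho = -0.233, adjusted p = 0.0199). Of 13 slow fibre probes, 4 fell with rising PVALB in SM and none rose, with a median r of -0.243 against 0.00447 over all probes. Among markers of other cell types in SM, where 14.8% of all probes had r of 0.3 or more in size with PVALB, 2 of 3 adipocyte, 2 of 4 fibroblast, 2 of 3 macrophage and 3 of 9 smooth muscle probes rose with it. None of the adipocyte, fibroblast or macrophage probes passed in LM, where 2.78% of all probes had such an r. The difference between the muscles in these relations was not tested. Counts of markers here are calls by adjusted p, whereas the shares of all probes go by size of r in either direction. By rho, the relations of PDLIM3 with MYH1 in SM (adjusted p = 0.0592), TAGLN with MYL1 in LM (adjusted p = 0.167) and MYL2 with PVALB in SM (adjusted p = 0.107) did not pass.

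**Figure D5:**
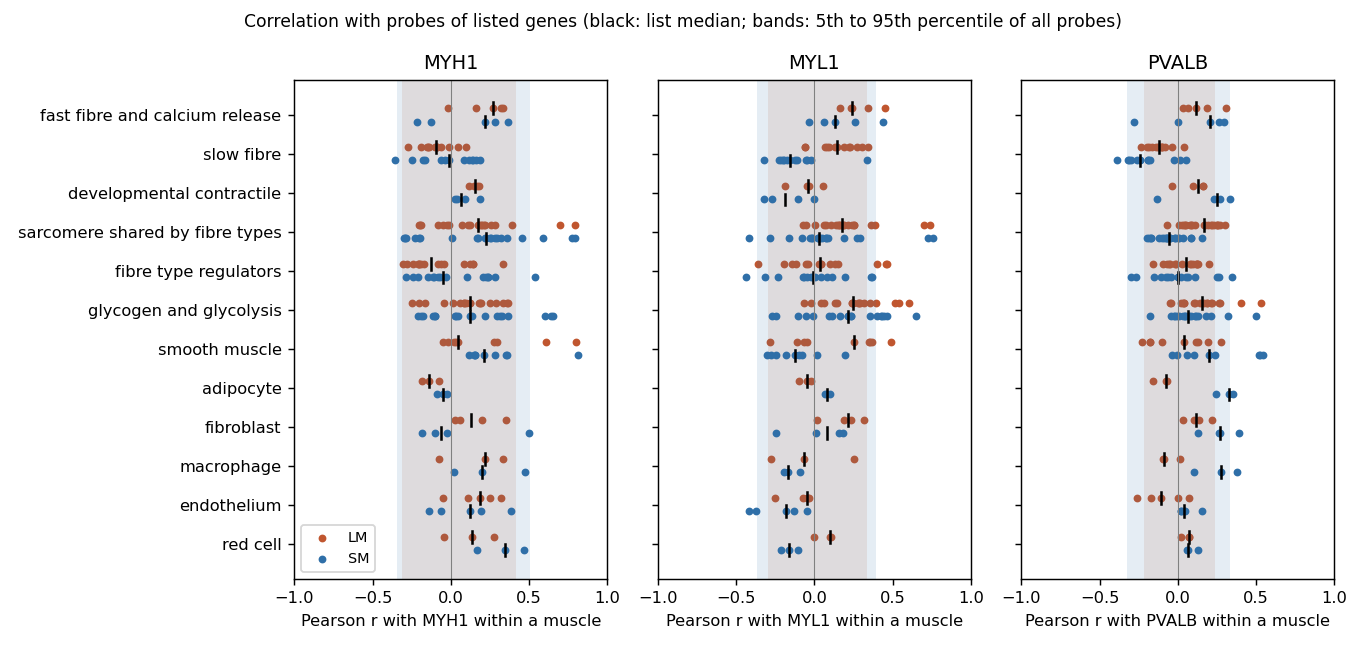
Pearson r within a muscle (horizontal axis) between each of the 3 genes and the 105 probes of listed genes, by list (vertical axis), in LM (orange) and SM (blue). Black marks are list medians and shaded bands span the 5th to 95th percentile of r over all probes. The sarcomere points farthest right are ACTA1 for MYH1, up to 0.796, and CAPZA2 for MYL1, up to 0.760.

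Among all probes with a gene name, those most like each member were ranked by the lower of their r in LM and in SM, over 90 arrays at most in each. For MYH1 they were ACTA2 with a lower r of 0.797 and the 2 ACTA1 probes with 0.772 and 0.697. For MYL1 they were the 2 CAPZA2 probes with 0.738 and 0.701, and CACNA2D1, an auxiliary subunit of voltage-gated calcium channels, with r of 0.680 in LM (rho = 0.620) and 0.602 in SM (rho = 0.552). For PVALB they were SUPT4H1, TPI1 and BPGM. SUPT4H1, a transcription elongation factor, had r of 0.613 in LM (rho = 0.601, 86 arrays) and 0.874 in SM (rho = 0.889, 90 arrays), and 0.753 and 0.896 within slides. Its level was higher in SM by a difference of -0.77 ± 0.044 (SE), the direction of PVALB. The SUPT4H1 and PVALB probes shared no run of bases longer than 6. TPI1 had r of 0.532 in LM and 0.496 in SM, and BPGM, bisphosphoglycerate mutase, had 0.476 and 0.512. These probes were picked for their likeness, so no test is given. The unnamed probe that shared 21 bases with the MYH1 probe had r of 0.846 with it in LM and 0.488 in SM, and was also higher in SM, by a difference of -0.63.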

How the data were processed

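Deposited values are spot intensities read by Agilent Feature Extraction 9.5.1.1 (44 LM arrays) and 9.5.3.1 (46 LM and 90 SM arrays). The processed signal the authors deposited had its background subtracted and was detrended within the array. A second table the authors deposited gives natural log values of 6903 probes, centred within arrays. Here log2 of the processed signal was centred on the median of each array. Saturated spots, non-uniform spots and spots failing the background criterion were set missing, as were values beyond 3 SD of their probe (3.07% of values in all), and probes missing in over 50% of arrays of either muscle were left out. Muscles were compared with limma 3.58.1 (R 4.3.3, statmod 1.5.0) over 10987 probes without the terms for sex, season, hybridization batch and weight of the model of the study, with Benjamini-Hochberg adjustment. Permutation tests were two-sided, with 100000 resamples, or 10000 for listed genes (Python 3.11.15, NumPy 2.4.6, pandas 2.3.3, matplotlib 3.10.9). Same-numbered muscles come from the same pig, which pairs them, and the r between them was 0.189, 0.0757 and -0.0175 for MYH1, MYL1 and PVALB. The steps were tested on simulated data. Genes named besides the 3 members were those of 12 lists with a probe in the study's tables, of which the extremes by difference and by correlation are given, and the 3 most similar named probes. Members and lists were chosen with earlier results of these data known. Intensities give no depth, so the number of arrays limits the precision. P values rest on the spread between arrays, in which pig, hybridization, slide and scan day are mixed, and the half-sib families were not modelled. With scan day as random block, the SE of the difference rose from 0.030 to 0.049 for MYH1. It rose from 0.053 to 0.089 for MYL1 and from 0.13 to 0.22 for PVALB. The alternatives were other scalings and background correction, other handling of spots, random slide and day blocks, the base composition index, the share of probes above background, and the software version.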

Additional observations from a re-analysis of the deposited data

How the results depend on the processing

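The muscle differences of MYH1, MYL1 and PVALB kept their direction and their call under every alternative run. The 3 differences in fold change between them did so under other scalings, background correction, other handling of spots and the deposited table. For these 3, the base composition index, the slide and day blocks and the software version were not run. With pig as replicate block the differences were -0.55, 0.87 and -1.23, and this changed no call of the 3 genes. The 9169 of 10987 probes called became 6027 of 6903 with the deposited table, 10854 of 13543 without a filter on dim probes, and 7147 of 10987 with the base composition index and pig as block. The weaker relations moved more, and the cause was not tested. The r of MYL1 and PVALB in LM was 0.267 with centring on the 75th percentile, 0.2498 with quantile normalization, 0.264 with failed spots kept, 0.210 within slides and 0.160 on arrays of version 9.5.1.1, and did not pass in any of these. That of MYH1 and MYL1 passed in LM with normexp (0.339), within slides (0.298) and on arrays of version 9.5.1.1 (0.396), and in SM it turned to 0.00861 with normexp. That of MYH1 and PVALB turned in LM to -0.0327 with quantile normalization, -0.0205 within slides and -0.0330 on arrays of version 9.5.1.1, and in SM to -0.0522 with quantile normalization and -0.0226 on residuals of the base composition index. The r between muscles passed for MYH1 with quantile normalization (0.272) and with failed spots kept (0.316). It turned for PVALB without the removal of outlying values (0.0360) and with the deposited table (0.0547), and for MYL1 within slides (-0.0220). The log2 ratio of SDs of MYH1 was 0.63 with failed spots kept, where it passed, and -0.057 with normexp. That of MYL1 turned to -0.055 with centring on the 75th percentile, -0.26 with the deposited table and -0.17 within slides. Without a filter on dim probes the median difference over all probes was -0.15 in place of -0.07.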
